A study of Mus musculus with 47 samples.

Results

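Sst, Vip, Cck, Pvalb, Reln and Calb2 are 6 genes widely used as markers of classes of inhibitory interneurons in the mouse brain. They were taken by gene symbol, through the GENCODE M21 annotation of the GRCm38 genome, as 6 of the 37315 Ensembl genes with deposited counts, and all 6 had a row in each of the 4 regional tables. The libraries were bulk RNA-seq of whole hypothalamus, hippocampus, neocortex and cerebellum from females of the inbred mouse strain C57BL/6J, taken at proestrus, estrus, metestrus or diestrus. No group carried a transgene, deletion or treatment. Each region had 3 libraries per stage, except that 2 were analysed for the neocortex at estrus, which gave 47 libraries, described by the submitters as biological replicates. Mice at proestrus were 91 days old and mice at estrus 90 days old, so that age and stage cannot be told apart between those groups, while metestrus mice were 90 or 91 and diestrus mice 90 or 92 days old. The hippocampus libraries were prepared with another protocol than those of the other 3 regions, so that every comparison with the hippocampus is one of region and protocol together.

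Interneurons are local neurons that release GABA and set the timing and gain of the principal cells around them. In the cortex and hippocampus somatostatin cells inhibit dendrites, fast-spiking parvalbumin cells inhibit cell bodies, cholecystokinin basket cells inhibit cell bodies under cannabinoid control, and VIP cells largely inhibit other interneurons. The same genes are also used by cells that are not cortical interneurons: Pvalb by Purkinje cells and the interneurons of the cerebellar molecular layer, Calb2 and Reln by cerebellar granule cells, Cck by pyramidal neurons, Vip by the suprachiasmatic nucleus, and Sst by neuroendocrine cells of the hypothalamus. In whole tissue a low level of such a gene can come from fewer cells of a type or from less RNA per cell, and these cannot be told apart.

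Library totals ran from 1826368 to 8264980 counts for the hypothalamus and from 2558644 to 7996961 for the cerebellum, and were higher for the neocortex (6311867 to 10535466) and hippocampus (7672217 to 15680876). Regional markers were highest where the labels place them. Pmch, a peptide of the lateral hypothalamus, had a mean in the hypothalamus of 214 CPM, which is a gene's count divided by the library total and multiplied by 1000000, and at most 0.162 CPM elsewhere, and Pcp2 of Purkinje cells had a mean of 365 CPM in the cerebellum and at most 4.41 CPM elsewhere. Some libraries stood apart. Cerebellum Metestrus 1, Metestrus 2 and Estrus 2 held more of the thalamic and midbrain transcription factor Tcf7l2 (37.0, 38.6 and 21.2 CPM) than the other 9 cerebellar libraries, which ranged from 4.47 to 10.2 CPM. In the hypothalamus Lars2 took between 1.34% and 13.5% of all counts, with the highest shares in Estrus 3 and Metestrus 3, which lowers the CPM of every other gene there. Hypothalamus Estrus 3 was also lowest of its region in the sum of the hypothalamic markers (464 CPM, median 672) and of the reelin pathway (582 CPM, median 990). The part of Lars2 in these low sums was not tested. Hypothalamus Estrus 1 was lowest of its region in Grm2, Kit and Ebf3, of which Grm2 and Kit are also among the genes most like Pvalb in these libraries. The 6 striatal markers summed to 237 CPM in Hypothalamus Estrus 3 (median of the region 116 CPM) and to 178 CPM in Neocortex Estrus 1 (median 111 CPM), the highest of their regions. In Hippocampus Metestrus 3 the mean log2 level of the cerebellar granule cell markers lay 1.46 and that of the Purkinje markers 0.79 above the region mean. Each stage contrast named below is also given without the libraries of its stages that stood apart.

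The promoters of the 3 peptide genes, each lower in the cerebellum than in the hippocampus and neocortex, are shown for the cyclic AMP response element. This element, a site through which neuronal activity can raise transcription, was first described in somatostatin and related peptide genes. The relation of such sites to the levels of these genes was not tested. RefSeq promoters on GRCm38.p6 were found for 5 of the 6 genes. The 250 bases before the RefSeq start are given 5′ to 3′ on the strand of the gene for Sst (chr16:23890845-23891094, minus strand), Vip (chr10:5638968-5639217, plus strand) and Cck (chr9:121495695-121495944, minus strand). Capitals mark TGACGTCA, the full response element, or its shorter core TGACG and the reverse complement CGTCA.
Sst: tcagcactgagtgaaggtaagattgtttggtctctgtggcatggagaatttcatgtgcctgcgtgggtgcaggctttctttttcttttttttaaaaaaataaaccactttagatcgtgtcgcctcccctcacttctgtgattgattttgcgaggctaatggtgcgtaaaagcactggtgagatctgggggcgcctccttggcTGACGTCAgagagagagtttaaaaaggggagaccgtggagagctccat
Vip: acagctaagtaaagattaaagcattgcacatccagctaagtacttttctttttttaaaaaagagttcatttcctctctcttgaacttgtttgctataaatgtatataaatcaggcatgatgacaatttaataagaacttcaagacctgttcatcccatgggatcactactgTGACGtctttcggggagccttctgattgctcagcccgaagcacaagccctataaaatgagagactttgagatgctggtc
Cck: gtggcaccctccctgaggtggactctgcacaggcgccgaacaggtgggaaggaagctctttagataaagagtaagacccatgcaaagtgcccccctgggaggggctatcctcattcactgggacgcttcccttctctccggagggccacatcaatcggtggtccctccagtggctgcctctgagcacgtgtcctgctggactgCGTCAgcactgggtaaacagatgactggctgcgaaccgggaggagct
In Sst the palindrome TGACGTCA began at base -48 before the RefSeq start, and in Vip TGACG began at base -79. In Cck the reverse complement CGTCA began at base -47. Searched on both strands in windows of the same length, TGACGTCA was present in 1.546% of the 32851 RefSeq promoters and TGACG, which also matches inside TGACGTCA, in 17.765%. TATAAA, the core of the TATA box, was present in 12.368% of promoters and matched 3 times in Vip, the nearest at base -30. None of these motifs matched in the windows of Pvalb and Reln. The GENCODE start of Sst lies 114 bases further upstream than the RefSeq start, inside the window shown.

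Sst, the gene of the peptide somatostatin (ENSMUSG00000004366, chr16:23889573-23890958), was high in the hippocampus and neocortex, intermediate in the hypothalamus and low in the cerebellum. Its level in the 12 hippocampus libraries ran from 118 CPM over a median of 149.6 to 173 CPM (mean 144 ± 18.2, SD), and in the 11 neocortex libraries from 108 over 130.3 to 148 CPM (133 ± 11.4). In the 12 hypothalamus libraries it ran from 47.1 over 77.0 to 98.7 CPM (74.0 ± 16.0), and in the 12 cerebellum libraries from 1.70 over 2.90 to 14.3 CPM (4.93 ± 4.06). The hippocampus and neocortex libraries overlapped, and every other pair of regions was separated without overlap. The fitted difference between hippocampus and neocortex was 0.02 on the log2 scale (95% interval -0.20 to 0.25), with an adjusted p of 0.859 in edgeR's quasi-likelihood test with Benjamini-Hochberg adjustment.

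Vip, the gene of vasoactive intestinal peptide (ENSMUSG00000019772, chr10:5639218-5647617), was higher in the neocortex than in any other region and nearly absent from the cerebellum. Its level ran from 21.6 over 30.6 to 37.5 CPM in the neocortex (29.5 ± 4.29, SD, n = 11), from 0.121 over 7.64 to 16.7 CPM in the hypothalamus (8.28 ± 5.09, n = 12) and from 4.24 over 6.33 to 8.92 CPM in the hippocampus (6.30 ± 1.40, n = 12). No neocortex library overlapped with a library of another region, whereas the hypothalamus spanned the whole range of the hippocampus and, through its lowest library, overlapped with the cerebellum. In the cerebellum 9 of 12 libraries had no count, and the other 3 had 6 (Estrus 2), 3 (Metestrus 1) and 2 counts (Metestrus 2). These 11 counts correspond to 0.170 CPM of the pooled cerebellar counts, with an exact Poisson interval of 0.0847 to 0.303 that covers counting error only. The 3 libraries with Vip counts were the same that held the highest Tcf7l2, and the part of that in the cerebellar Vip signal was not tested.

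Cck, the gene of cholecystokinin (ENSMUSG00000032532, chr9:121489824-121495694), was the most regionally divided peptide gene outside the cerebellum. It ran from 151 over 190.0 to 222 CPM in the neocortex (191 ± 21.2, SD, n = 11) and from 142 over 163 to 209 CPM in the hippocampus (169.7 ± 21.2, n = 12). In the cerebellum it ran from 19.2 over 21.4 to 27.8 CPM (21.8 ± 2.38, n = 12), and in the hypothalamus from 2.92 over 8.44 to 12.8 CPM (7.97 ± 3.11, n = 12). Neocortex and hippocampus overlapped, and both lay above all cerebellar libraries, which lay above all hypothalamic ones. Cck was thus the only peptide gene with its lowest level in the hypothalamus.

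Pvalb, the gene of the calcium buffer parvalbumin (ENSMUSG00000005716, chr15:78191114-78206400), had the steepest gradient of the calcium-binding members. It ran from 255 over 391 to 425 CPM in the cerebellum (381 ± 43.7, SD, n = 12), where the lowest value came from Proestrus 1, the library with the fewest counts of its region. In the neocortex it ran from 37.8 over 42.1 to 46.2 CPM (42.1 ± 2.83, n = 11), in the hippocampus from 16.9 over 19.8 to 25.0 CPM (20.3 ± 2.75, n = 12) and in the hypothalamus from 0.364 over 5.65 to 9.44 CPM (5.77 ± 2.68, n = 12). All 4 regions were separated without overlap, in that order.

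Calb2, the gene of the calcium-binding protein calretinin (ENSMUSG00000003657, chr8:110137502-110168210), shared the cerebellar maximum of Pvalb but reversed the order of the other regions. It ran from 214 over 251 to 289 CPM in the cerebellum (250.3 ± 21.6, SD, n = 12), from 54.8 over 89.3 to 119 CPM in the hypothalamus (89.0 ± 17.3, n = 12), from 17.9 over 22.7 to 28.9 CPM in the hippocampus (23.4 ± 4.01, n = 12) and from 3.81 over 5.22 to 6.97 CPM in the neocortex (5.16 ± 0.807, n = 11). Again no libraries of different regions overlapped.

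Reln, the gene of the secreted glycoprotein reelin (ENSMUSG00000042453, chr5:21884454-22344702), was the most even member outside the cerebellum. It ran from 261 over 299 to 349 CPM in the cerebellum (302 ± 24.1, SD, n = 12), above every other library. In the hippocampus it ran from 59.9 over 67.0 to 72.6 CPM (66.7 ± 4.16, n = 12), in the neocortex from 51.0 over 59.8 to 65.4 CPM (59.3 ± 3.96, n = 11) and in the hypothalamus from 34.5 over 40.6 to 77.6 CPM (44.0 ± 11.8, n = 12), and these 3 regions overlapped with each other. The fitted difference of Reln between hippocampus and neocortex was 0.07 on the log2 scale (95% interval -0.07 to 0.21), with an adjusted p of 0.378 in edgeR's quasi-likelihood test. An antisense gene, Gm10475, overlaps an exon of Reln, and without a stated strand setting the reads of the 2 genes cannot be told apart.

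**Figure D1:**
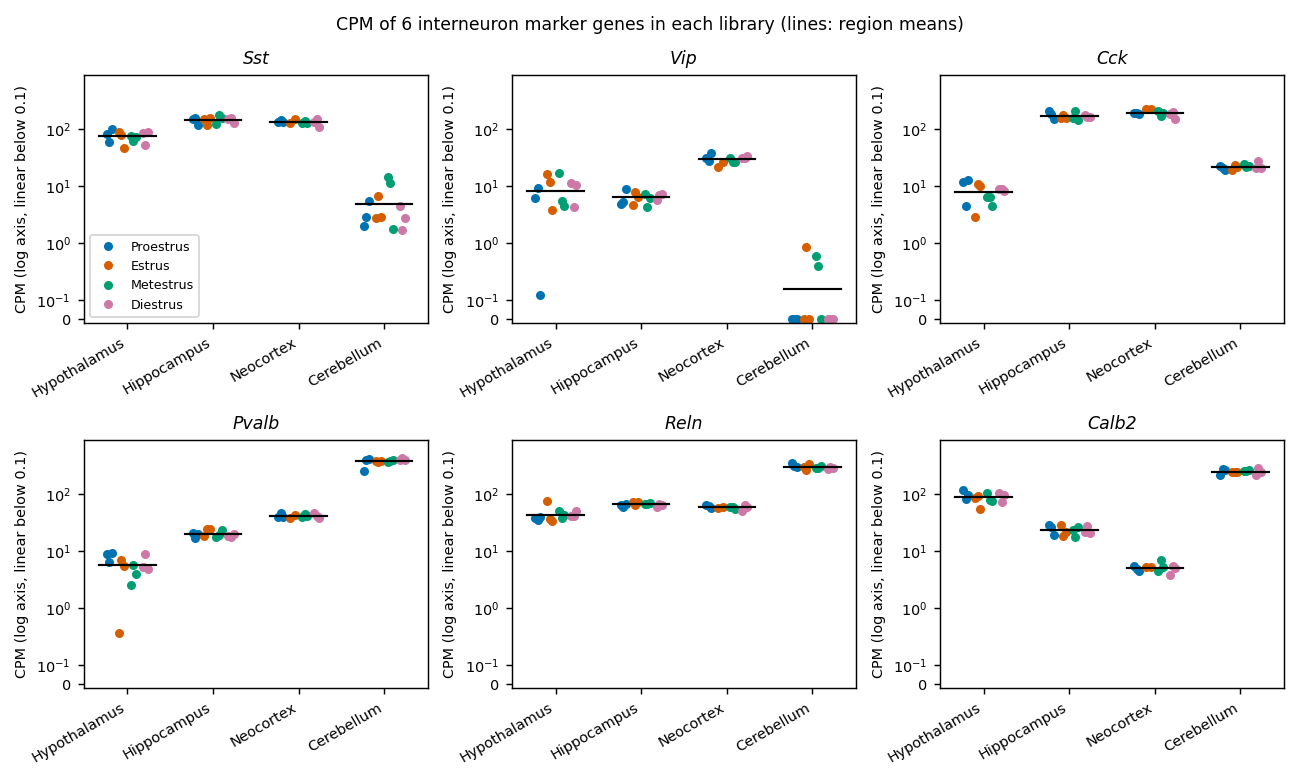
CPM of each of the 6 genes (log axis, linear below 0.1) in each library of the 4 regions, coloured by stage, with a line at the region mean. Cerebellar libraries are highest for Pvalb, Reln and Calb2 and lowest for Sst. For Vip 9 cerebellar libraries sit at 0, while the other 3 lie above the lowest hypothalamus library.

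The order of the 4 regions by mean CPM was the same in all 4 stages for Sst, Cck, Pvalb, Reln and Calb2. For Vip it was the same in 3 of 4 stages, and at proestrus the hippocampus mean lay above the hypothalamus mean.

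Region differences were tested with edgeR's glmTreat, which asks whether a gene differs by more than 2-fold, over 16529 genes with stage as covariate and Benjamini-Hochberg adjustment. Between neocortex and cerebellum all 6 members were called, against 17.1% of all genes. Sst was higher in the neocortex by 4.92 (SE 0.16), Vip by 7.48 (SE 0.39) and Cck by 3.30 (SE 0.09) on the log2 scale. Pvalb (-3.01, SE 0.09), Reln (-2.18, SE 0.07) and Calb2 (-5.43, SE 0.08) were higher in the cerebellum. The Vip difference rests on 11 cerebellar counts, so its size depends on the prior count of the fit. Vip did not pass the filter on low counts within the cerebellum alone, so its direction in each pair with the cerebellum was set by the filter.

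Between hippocampus and cerebellum all 6 were called as well, against 18.9% of genes, with Sst (4.94), Vip (5.16) and Cck (3.04) higher in the hippocampus and Pvalb (-4.15), Reln (-2.10) and Calb2 (-3.34) higher in the cerebellum. Hypothalamus and cerebellum also differed for all 6, against 18.5% of genes: Sst (3.97) and Vip (5.49) were higher in the hypothalamus, and Cck (-1.36), Pvalb (-5.96), Reln (-2.73) and Calb2 (-1.43) in the cerebellum. The Cck call was the closest, with an adjusted p of 0.00343, and limma voom gave an adjusted p of 0.0548. The 3 peptide genes thus did not move together: the cerebellum exceeded the hypothalamus for Cck and fell below it for Sst and Vip.

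Among the other 3 regions fewer members passed. Between hypothalamus and neocortex 4 of 6 were called, against 16.1% of genes: Vip (-1.99, SE 0.22), Cck (-4.66, SE 0.11) and Pvalb (-2.94, SE 0.13) were higher in the neocortex and Calb2 (4.01, SE 0.08) in the hypothalamus. Between hypothalamus and hippocampus 3 of 6 were called, against 14% of genes: Cck (-4.40, SE 0.10) and Pvalb (-1.81, SE 0.13) were higher in the hippocampus and Calb2 (1.92, SE 0.07) in the hypothalamus. Between hippocampus and neocortex 2 of 6 were called, against 7.56% of genes: Vip was higher in the neocortex (-2.33, SE 0.19) and Calb2 in the hippocampus (2.09, SE 0.09). Pvalb differed there by -1.13 (SE 0.09), with an adjusted p of 0.252 against the 2-fold limit. Tested against no difference instead of 2-fold, 5 members were called between hypothalamus and hippocampus, against 75% of genes, 6 between hypothalamus and neocortex, against 74.9%, and 4 between hippocampus and neocortex, against 65.4%. In the tests against 2-fold Calb2 was called in all 6 region pairs, and Sst and Reln only in the pairs with the cerebellum.

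Counts cannot be compared between genes of different length, so the 6 genes were also set against each other per 1000 bases of exon. Pvalb led in all 12 cerebellar libraries with either of 2 lengths, the union of a gene's exons (1041 bases for Pvalb) or its principal transcript (977 bases). It made up 67.1% of the 6 genes together in the cerebellum on the union length, followed by Calb2 with 26.3%. Sst led in all 12 hypothalamus libraries with either length, at 60.5% of the 6 on the union length, again followed by Calb2 with 30.1%. In the hippocampus and neocortex the leader depended on the length used. On the union length Sst led in all 12 and all 11 libraries, with 54.3% and 47.9% of the 6, ahead of Cck with 35.4% and 38.0%. On the principal transcript, which is 783 bases for Cck instead of 1305, Cck led in 8 of 12 hippocampus libraries and in all 11 neocortex libraries, with 46.8% and 48.8%. Vip made up at most 3.86% and Reln at most 4.12% of the 6 in any region on either length.

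**Figure D2:**
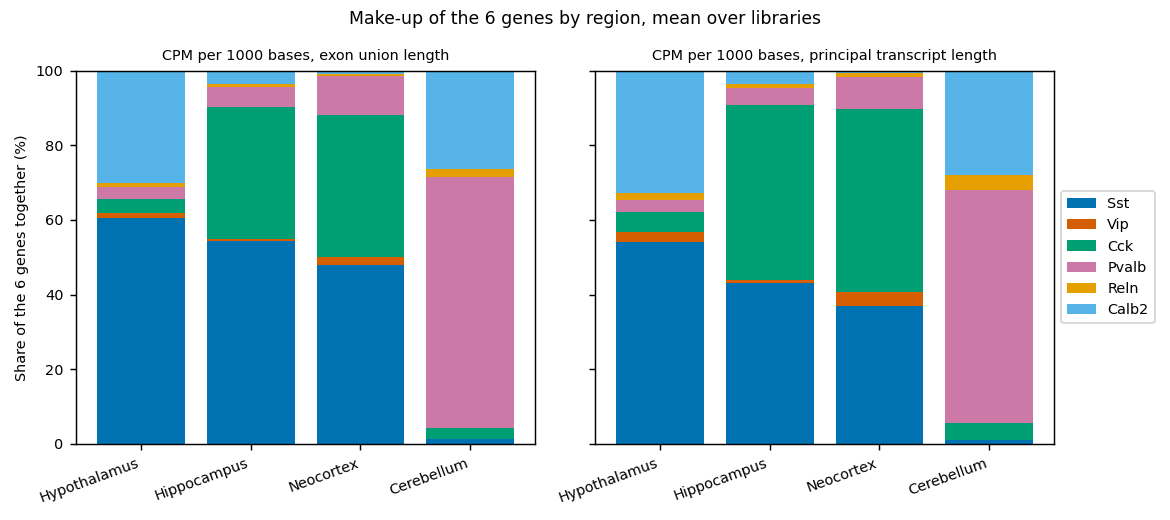
Share of each gene (%) in the sum of the 6 genes, in CPM per 1000 bases averaged over the libraries of a region, with the union of exons (left) and the principal transcript (right) as length. Pvalb takes 67.1% of the cerebellar sum on the left, and the order of Sst and Cck in hippocampus and neocortex changes between the panels.

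Genes that act with the members were divided between regions in other ways. Of the 5 genes of GABA synthesis and transport, shared by all inhibitory neurons, 0 were called in each of the 3 pairs with the cerebellum, near the background of 17.1% to 18.9% of all genes, and Gad1, the main GABA-synthesizing enzyme, had 396 CPM in the cerebellum and 258 CPM in the neocortex. Between neocortex and cerebellum, where 17.1% of all genes were called, 9 of 12 interneuron transcription factors were higher in the neocortex and 1 in the cerebellum, with a median difference of 2.69 (log2) beside -0.01 over all genes. The smallest p-values belonged to Dlx1 (46.2 against 0.105 CPM) and Lhx6 (17.5 against 0.0764 CPM), which specify forebrain interneurons in development. Dlx2 and Dlx5 had no count in any cerebellar library. Within the cerebellum alone 6 of the 12 passed the filter on low counts, and 12 within the neocortex. The direction of those that passed only outside the cerebellum was set by the filter and is no separate result. Against the same 17.1%, of 21 other interneuron markers 10 were higher in the neocortex and 6 in the cerebellum, among them Lamp5 of neurogliaform cells (211 against 1.04 CPM) and Calb1, which Purkinje cells also use (84.1 against 754 CPM). The same limit holds here, as 14 of the 21 passed the filter within the cerebellum alone and 20 within the neocortex. Of 6 relatives of the calcium-binding members 4 passed the filter on low counts, of which 3 were higher in the neocortex and 1 in the cerebellum. Cell types of the cerebellum that use Pvalb, Calb2 and Reln had their markers there: the 6 Purkinje markers summed to between 5542 and 6588 CPM in the cerebellum and at most 895 CPM elsewhere, and the 7 granule cell markers to between 4066 and 4833 CPM and at most 161 CPM elsewhere. Their part in the levels of the 3 members was not tested.

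Receptors for the 3 peptides followed region as well. Between neocortex and cerebellum 5 of 9 were higher in the neocortex and 2 in the cerebellum, with a median difference of 2.83 (log2) beside -0.01 over all genes, of which 17.1% were called in either direction. Cckbr, the main brain receptor for cholecystokinin, had 77.0 CPM in the neocortex and 1.76 CPM in the cerebellum. Between hypothalamus and neocortex 3 of 9 were higher in the hypothalamus and 5 in the neocortex, against 16.1% of all genes called, with Vipr1 at 0.788 CPM in the hypothalamus and 34.4 CPM in the neocortex. Vipr2, the VIP receptor of the suprachiasmatic nucleus, had 5.62 CPM in the hypothalamus and 0.222 CPM in the neocortex. Within a region alone, 5 of the 9 receptors passed the filter on low counts in the cerebellum, 6 in the neocortex and 8 in the hypothalamus. For a receptor that passed in only 1 region of a pair, the direction was set by the filter. Of the 6 genes of the reelin pathway 0 were called in each pair with the cerebellum, where 17.1% to 18.9% of all genes were, so that this count is near the background. Dab1, the adaptor of reelin receptors, was the only one called in any pair, with a log2 difference of -1.28 for hypothalamus minus hippocampus and -1.17 for hypothalamus minus neocortex. Its levels were 48.3, 116 and 102 CPM in hypothalamus, hippocampus and neocortex. A count of 1 of 6 in each of those pairs, beside 14% and 16.1% of all genes, is near the background too.

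The stages of the estrous cycle were compared within each region by edgeR's quasi-likelihood test with Benjamini-Hochberg adjustment over all genes. No member was called in any region, where 0% of the genes tested passed (15230 for hypothalamus, 17079 for hippocampus, 15926 for neocortex and 14877 for cerebellum). Vip did not pass the filter on low counts in the cerebellum, so that 5 members were tested there and 6 in each other region. At an unadjusted p under 0.05 the test held 0 members in the hypothalamus and hippocampus, Vip and Cck in the neocortex and Sst in the cerebellum, beside 1.54%, 1.47%, 5.61% and 1.72% of genes in the same order of regions. DESeq2 and limma voom called no member either, while without a filter on low counts edgeR called Sst in the cerebellum, with an adjusted p of 1.02e-06. That unfiltered test called 81 of 22882 genes in the cerebellum. No gene of the pathway lists was called in any region. Of the pairwise contrasts, 0 of 36 member results passed in each of hypothalamus, hippocampus and neocortex and 0 of 30 in the cerebellum, and 1, 0, 5 and 3 had an unadjusted p under 0.05. Over all genes the same share of results was 2.44%, 1.99%, 5.71% and 2.32%, in that order of regions.

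The intervals say what size of stage difference these libraries could hold. In the hippocampus and neocortex all 36 intervals of 95% lay within a 2-fold change in either direction. In the cerebellum 24 of 30 did, and all 6 that did not belonged to Sst. In the hypothalamus 20 of 36 did, and the interval that reached farthest, that of Vip for estrus minus proestrus, ran from -0.08 to 3.06 on the log2 scale. The median half-width of an interval was largest for hypothalamus (0.59, log2), followed by hippocampus (0.32), cerebellum (0.22) and neocortex (0.20).

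**Figure D3:**
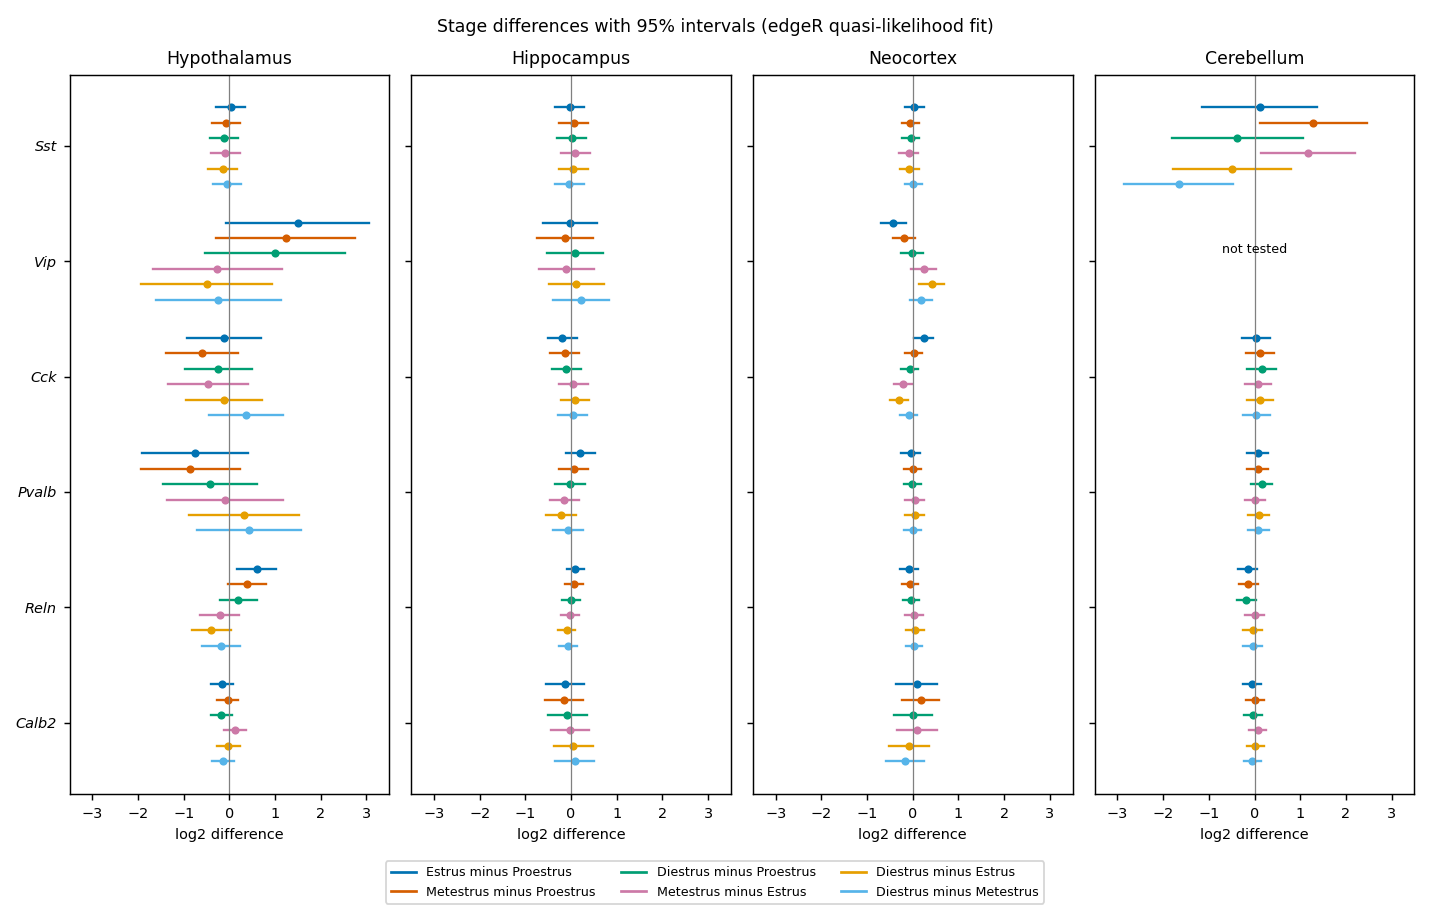
Fitted log2 differences between stages (points) with 95% intervals (bars) for the 6 genes in each region, from edgeR's quasi-likelihood fit. Intervals are narrow in the hippocampus and neocortex and wide for Vip, Cck and Pvalb in the hypothalamus and for Sst in the cerebellum.

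Vip in the neocortex was lowest at estrus. Its levels were 31.2, 27.7 and 37.5 CPM at proestrus, 21.6 and 26.8 CPM at estrus, 31.6, 26.0 and 26.7 CPM at metestrus and 30.6, 30.6 and 33.7 CPM at diestrus. Both estrus libraries lay below all proestrus and diestrus libraries and overlapped with those of metestrus. The difference of estrus minus proestrus was -0.43 (log2, SE 0.13) with an unadjusted p of 0.00383 and an adjusted p of 0.424, beside 8.32% of genes at an unadjusted p under 0.05. Diestrus minus estrus was 0.41 (SE 0.13) with an adjusted p of 0.251, beside 11.8% of genes at an unadjusted p under 0.05. Without Estrus 1, the library with the lowest Vip and the most striatal marker counts, the differences were -0.29 and 0.27. Of the 5 striatal markers tested 0 were called for stage in the neocortex and 3 had an unadjusted p under 0.05. The part of striatal tissue in the Vip levels was not tested.

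Cck in the neocortex was highest at estrus. Its levels were 190.0, 189 and 179 CPM at proestrus, 221 and 222 CPM at estrus, 205, 168 and 193 CPM at metestrus and 182, 199 and 151 CPM at diestrus. Both estrus libraries lay above all others. The difference was 0.23 (log2, SE 0.10) for estrus minus proestrus, -0.21 (SE 0.10) for metestrus minus estrus and -0.30 (SE 0.10) for diestrus minus estrus, with adjusted p-values of 0.551, 0.700 and 0.252 in edgeR's quasi-likelihood test. Metestrus minus estrus was -0.13 without Metestrus 2, and diestrus minus estrus was -0.19 without Diestrus 3. At an unadjusted p under 0.05 there were 6.93% of genes in the contrast of metestrus and estrus. The 2 estrus libraries were also the highest in Slc17a7, the vesicular glutamate transporter of pyramidal neurons, at 1266 and 1281 CPM, while the others ranged from 1007 to 1190.5 CPM. Slc17a7 is the gene most like Cck in these same libraries, so this is not a separate sign. Cck and the mean of the 6 pyramidal markers had r = 0.50 and rho = 0.48 (n = 11, permutation p = 0.117 and 0.138, adjusted p = 0.504 for r). Without Proestrus 1 and Proestrus 3, r was 0.80. Without Estrus 1, which held the most striatal markers, the Cck differences were 0.22, -0.20 and -0.29. The part of pyramidal neuron content in the Cck levels was not tested.

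Sst in the cerebellum was highest in 2 metestrus libraries. Its levels were 1.95, 2.92 and 5.56 CPM at proestrus, 2.80, 6.66 and 2.88 CPM at estrus, 14.3, 11.4 and 1.75 CPM at metestrus and 4.47, 1.70 and 2.72 CPM at diestrus. The third metestrus library lay among the lowest, so metestrus overlapped with every other stage. The log2 difference was 1.28 (SE 0.56) for metestrus minus proestrus, 1.17 (SE 0.49) for metestrus minus estrus and -1.66 (SE 0.57) for diestrus minus metestrus, with unadjusted p-values of 0.0333, 0.0294 and 0.00926 beside 2.53%, 2.13% and 2.21% of genes under 0.05. None was called by edgeR's quasi-likelihood test (adjusted p = 1). Without Metestrus 1 alone they were 0.81, 0.69 and -1.18, and without Estrus 2 alone metestrus minus estrus was 1.70. The 3 libraries with the highest Sst were Metestrus 1, Metestrus 2 and Estrus 2, the same that stood apart in Tcf7l2. Lhx9, another thalamic and midbrain marker, was at 8.82, 7.37 and 3.77 CPM in these and at most 1.56 CPM in the other 9, and Slc17a6 was at 55.8, 55.5 and 36.7 CPM beside at most 33.4 CPM. Without these 3 libraries, which leaves 1 library at metestrus, the same differences were -1.09, -0.67 and 0.72.

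Reln in the hypothalamus was raised in a single estrus library. Its levels were 37.8, 34.8 and 40.4 CPM at proestrus, 77.6, 37.3 and 34.5 CPM at estrus, 51.5, 38.5 and 42.8 CPM at metestrus and 40.8, 42.4 and 49.9 CPM at diestrus. Estrus overlapped with all stages. Estrus minus proestrus was 0.59 (log2, SE 0.20), with an unadjusted p of 0.00955 and an adjusted p of 1 in edgeR's quasi-likelihood test, beside 3.79% of genes at an unadjusted p under 0.05. It was 0.20 without Estrus 1, 0.89 without Estrus 2 and 0.62 without Estrus 3. These differences are on the scale after TMM normalization, on which Estrus 3, the library with the most Lars2, lay 0.23 (log2) above the region mean of Reln although its CPM was the lowest.

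Hypothalamus Estrus 1 differed in other members too. Pvalb, at 8.82, 6.48 and 9.44 CPM at proestrus, 0.364, 6.98 and 5.48 CPM at estrus, 2.55, 5.83 and 3.97 CPM at metestrus and 5.35, 9.04 and 4.97 CPM at diestrus, had 1 count in Estrus 1. Cck was also lowest there, at 2.92 CPM in a range up to 12.8 CPM. Kit, which marks interneurons of the cerebellum and other regions, was lowest there at 12.8 CPM, and Grm2 at 6.92 CPM, while the other libraries ranged from 20.3 to 48.8 CPM and from 12.8 to 61.5 CPM. Kit and Grm2 are among the genes most like Pvalb in these same libraries (r = 0.94 each within the hypothalamus). Their low levels in Estrus 1 are therefore not separate from its low Pvalb. The 3 genes listed as markers of Cajal-Retzius cells, which make reelin, summed to 15.7 CPM there, the lowest of the region (median 28.3 CPM), although 1 of them, Trp73, was highest there at 5.47 CPM. Their median sum was 39.1 CPM in the cerebellum, 8.17 CPM in the hippocampus and 0.641 CPM in the neocortex. The list is therefore not read here as a measure of reelin-making cells. The part of the dissected tissue in the levels of Estrus 1 was not tested.

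Vip in the hypothalamus varied more between libraries of a stage than between stages. Its levels were 6.07, 9.20 and 0.121 CPM at proestrus, 16.0, 11.5 and 3.83 CPM at estrus, 16.7, 5.41 and 4.41 CPM at metestrus and 11.2, 4.36 and 10.5 CPM at diestrus. Proestrus 3, which had 1 Vip count, was the deepest library of its region. It was also lowest in Prok2, a peptide gene of the suprachiasmatic nucleus, at 0.242 CPM in a range up to 3.58 CPM, and in Rgs16 at 19.0 CPM in a range up to 51.8 CPM. Rgs16 is among the genes most like Vip in these same libraries, so it is not a separate sign. The 4 suprachiasmatic markers summed lowest in Estrus 3 (17.0 CPM), where the hypothalamic markers and the thalamic and midbrain markers also summed lowest. Their median sum was 34.4 CPM in the hypothalamus and 86.4 CPM in the cerebellum, where Nms, Prok2 and Six6 had no count. The suprachiasmatic list is therefore not read here as a measure of suprachiasmatic tissue. The 8 thalamic and midbrain markers, Rgs16 among them, summed highest in Proestrus 3 (340 CPM). Vip and the mean of the suprachiasmatic markers had r = 0.73 and rho = 0.45 (n = 12, permutation p = 0.00901 and 0.14, adjusted p = 0.124 for r). Without Proestrus 3 and Diestrus 3, r was 0.43. The share of suprachiasmatic tissue in each dissection was not tested.

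In the hippocampus the contrast with the smallest unadjusted p was Pvalb between diestrus and estrus. Pvalb was at 20.6, 16.9 and 20.4 CPM at proestrus, 18.4, 25.0 and 24.9 CPM at estrus, 18.1, 19.3 and 23.5 CPM at metestrus and 18.8, 17.7 and 20.4 CPM at diestrus, and all stages overlapped. Diestrus minus estrus was -0.22 (log2, SE 0.15), with an unadjusted p of 0.159 and an adjusted p of 0.999 in edgeR's quasi-likelihood test, beside 3.11% of genes at an unadjusted p under 0.05, and it was -0.36 without Estrus 1 and -0.14 without Estrus 2. The other members differed between hippocampal stages by at most 0.22 (log2), the largest being Vip. Sst stage means there ran from 141 to 149 CPM and Reln stage means from 64.0 to 70.2 CPM.

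**Figure D4:**
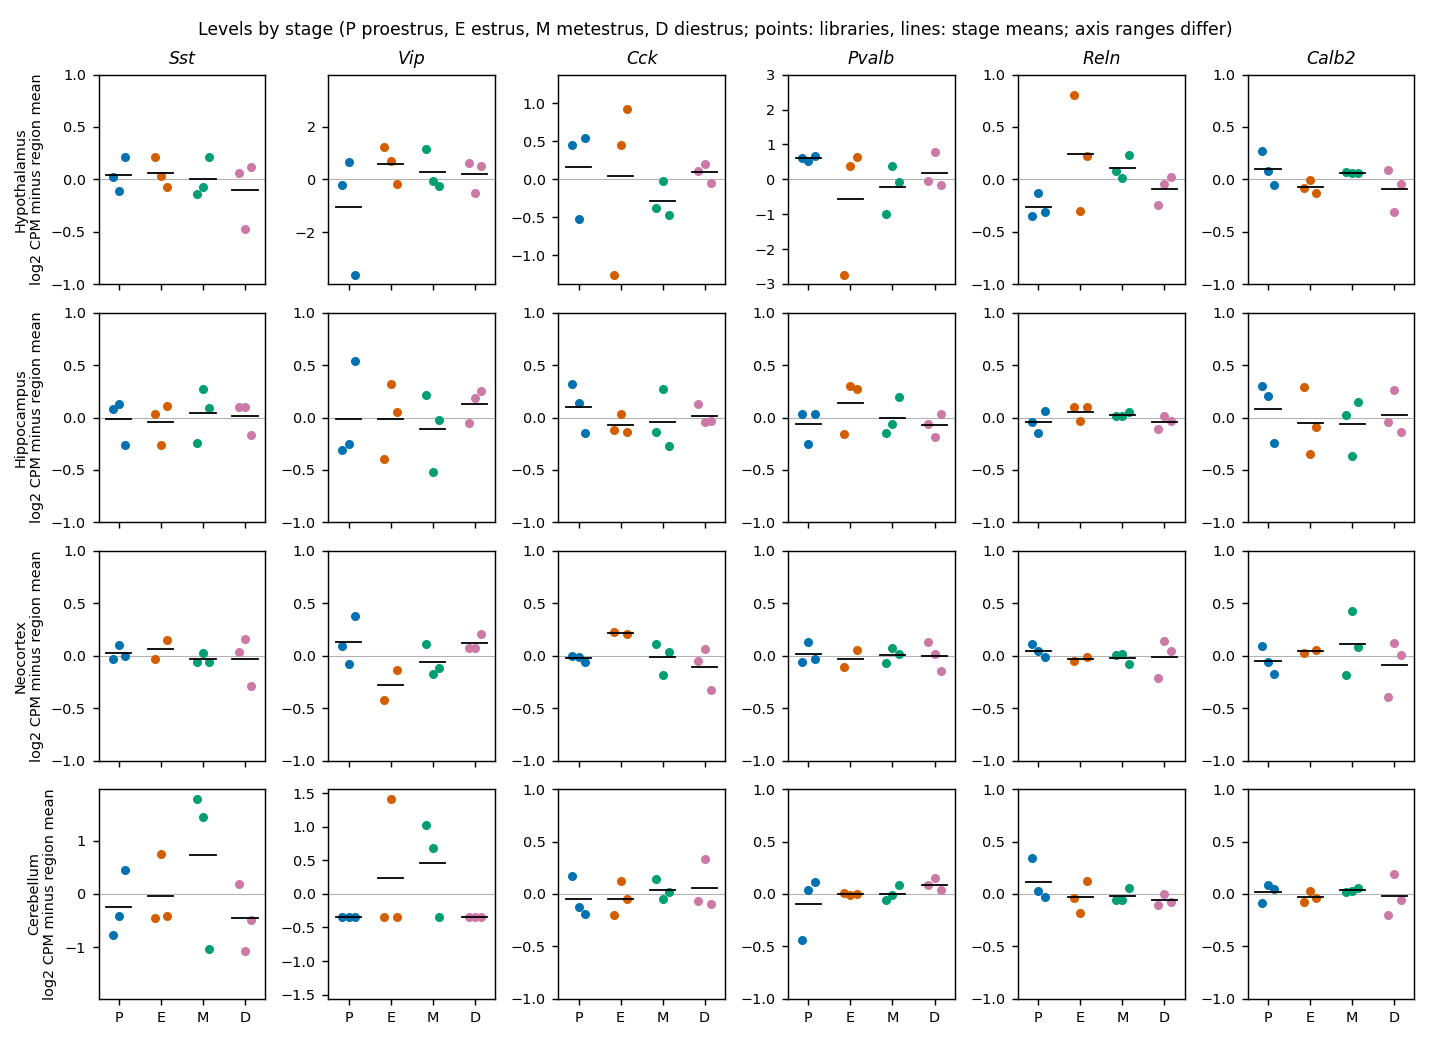
Levels of the 6 genes by stage in each region, as log2 CPM after TMM normalization minus the region mean (vertical axis, ranges differ between panels). Points are libraries and lines stage means. Single libraries lie apart for Vip, Pvalb and Reln in the hypothalamus and 2 metestrus libraries for Sst in the cerebellum.

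Whether stage differences of a member differed between regions was tested by the interaction of stage and region over all 47 libraries in edgeR. None of the 6 was called, with 0% of 16529 genes called and 1.55% at an unadjusted p under 0.05. The smallest unadjusted p was 0.0698 for Sst and 0.0749 for Reln, both with an adjusted p of 1.

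Variation between replicates set how well the members could be compared. The biological coefficient of variation of Vip in the hypothalamus was 0.613, and 0.466% of genes there had a larger one. Pvalb had 0.397 in the hypothalamus, where the median over genes was 0.115. Sst had 0.435 in the cerebellum, where the median was 0.0845 and 0.477% of genes exceeded it. Reln in the hippocampus was among the steadiest genes, at 0.0862 beside a median of 0.141, and 96.6% of genes had a larger one. In the neocortex all 6 lay between 0.0626 and 0.0832, close to the median of 0.0689.

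The genes most like each member were sought by Pearson's r of log2 CPM over the 47 libraries after the region means were removed, among genes with a mean CPM of at least 1 in every region. These values describe shared variation of libraries that also share depth and dissection, and carry no test. Sst was most like Camkv (r = 0.94), Nrgn (0.91) and Basp1 (0.90), and the likeness to Camkv was 0.98 within the cerebellum, 0.91 within the hippocampus, 0.68 within the neocortex and 0.20 within the hypothalamus. Camkv and Nrgn are neuronal calmodulin-binding proteins of the forebrain. Vip was most like Gm15852 (0.63), Rgs16 (0.59) and Mog (0.57), with Rgs16 at 0.94 within the hypothalamus and -0.21 within the hippocampus.

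Cck was most like Slc17a7 (r = 0.81), Epop (0.78) and Fndc5 (0.77), with Slc17a7 at 0.96 within the neocortex, 0.87 within the hypothalamus, 0.66 within the hippocampus and 0.30 within the cerebellum. Pvalb was most like Cpne9 (0.85), Kit (0.83) and Grm2 (0.82), all 3 above 0.94 within the hypothalamus and between -0.34 and 0.31 within the other regions. Reln was most like Ncoa6 (0.69), Zfp385b (0.63) and Nrxn3 (0.62). Calb2 had the weakest likenesses, to Lonp1 (0.55), Sf3b2 (0.54) and Psmd9 (0.54).

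**Figure D5:**
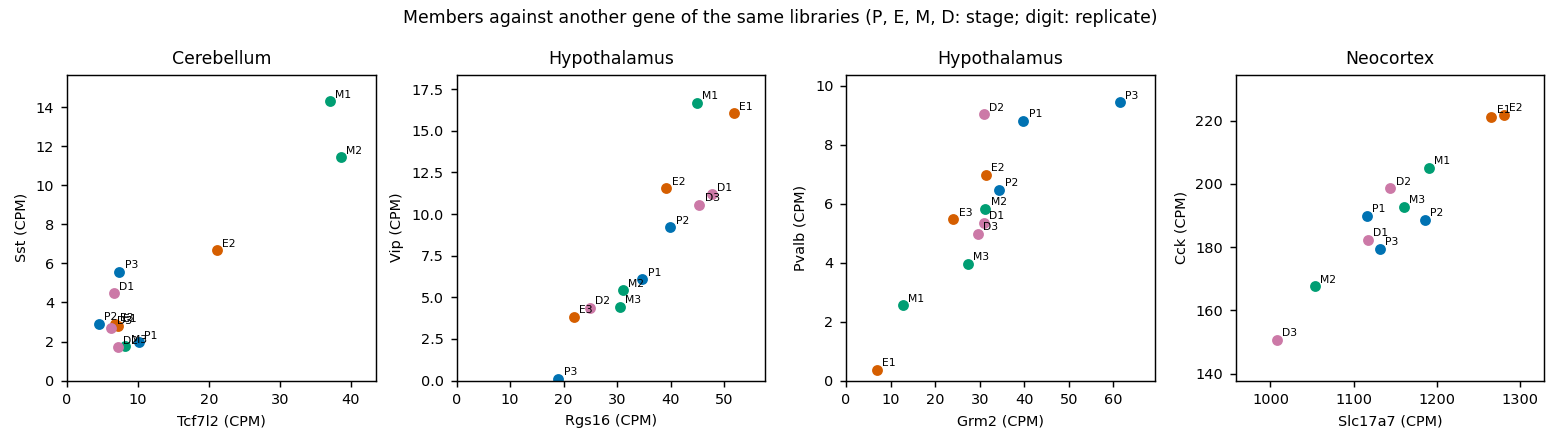
CPM of a member (vertical) against CPM of another gene in the same libraries (horizontal), labelled by stage and replicate. Rgs16, Grm2 and Slc17a7 are among the genes most like Vip, Pvalb and Cck in these libraries, so those panels are not separate signs. In the cerebellum Metestrus 1, Metestrus 2 and Estrus 2 are highest in both Sst and Tcf7l2; in the hypothalamus Proestrus 3 is lowest in Vip and Rgs16 and Estrus 1 lowest in Pvalb and Grm2; in the neocortex both estrus libraries are highest in Cck and Slc17a7.

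Levels of the members were also compared with each other across the libraries of a region. Of 55 correlations between members over the 11 or 12 libraries of a region, 0 passed a Benjamini-Hochberg adjustment over the 55 and 6 had an unadjusted permutation p under 0.05. Sst and Vip were inversely related in the hippocampus (r = -0.81, rho = -0.70, n = 12), with a permutation p of 0.00201 (0.0140 for rho) and an adjusted p of 0.0657, and r was -0.68 without Estrus 2 and Proestrus 3. Cck and Pvalb varied together in the hypothalamus (r = 0.79, rho = 0.72, n = 12), with a permutation p of 0.00239 (0.0107 for rho) and an adjusted p of 0.0657, and r was 0.54 without Estrus 1 and Estrus 3.

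Of 69 correlations between a member and the mean of a cell type's markers, 0 passed the adjustment over the 69 and 11 had an unadjusted permutation p under 0.05. Sst in the cerebellum fell with the Purkinje markers (r = -0.84, rho = -0.80, n = 12; permutation p = 0.00083 and 0.00259, adjusted p = 0.0573 for r) and rose with the thalamic and midbrain markers (r = 0.83, rho = 0.47, n = 12; permutation p = 0.00187 and 0.125, adjusted p = 0.0645 for r). Both rest in part on 2 libraries: without Metestrus 1 and Metestrus 2, r was -0.59 and 0.43. Pvalb in the neocortex varied with the oligodendrocyte markers (r = 0.75, rho = 0.77, n = 11; permutation p = 0.00606 and 0.0079, adjusted p = 0.122 for r), and r was 0.69 without Diestrus 1 and Metestrus 1. Reln in the cerebellum rose with the granule cell markers (r = 0.74, rho = 0.72, n = 12; permutation p = 0.00705 and 0.0110, adjusted p = 0.122 for r). Without Proestrus 1 and Diestrus 1, that r was 0.39. There Calb2 had r = 0.11 and rho = 0.03 with the granule cell markers, and Pvalb r = 0.20 and rho = 0.59 with the Purkinje markers.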

How the data were processed

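Bulk RNA-seq of 47 libraries was used. The deposited values are raw counts per Ensembl gene, 1 table per region. The submitters' processing notes name Cufflinks 2.1.1, DESeq 1.12.1, SAMtools, TopHat2 2.0.8 and Trimmomatic 0.32, with builds mm10 and GRCm38. The sources used here do not give the counting program, its strand setting or the annotation. Of 46 pairs of replicates, 0 were identical.

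CPM used library totals. Genes were filtered with filterByExpr (minimum count 10, minimum total 15), scaled by TMM and fitted with edgeR 4.0.16 in R 4.3.3. Stages were tested within regions by the quasi-likelihood test, and regions by glmTreat against a log2 fold of 1 with stage as covariate, with Benjamini-Hochberg adjustment over all genes and a threshold of 0.05. Alternatives included DESeq2 1.42.0 and limma 3.58.1. Correlations used log2 CPM (prior count 2) and 100000 permutations, two-sided. Library totals ran from 1826368 to 15680876 counts, and count intervals cover counting error only. Steps were tested on simulated data. GENCODE M21 symbols matched 35449 of 37315 genes. Contrasts were named where a member had an unadjusted p under 0.05, or by the smallest p where none had; for most alike genes, the 3 with the highest r. Members and lists were chosen with earlier results of these data known; the principal transcript length and the sets of libraries left out together were chosen after seeing the data.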

Additional observations from a re-analysis of the deposited data

How the results depend on the processing

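Without a filter on low counts, the stage test called 1 member in the cerebellum, Sst, where the filtered test called 0. Counted as results of a member in a pairwise contrast, 3 were called in the cerebellum, all of Sst. In hypothalamus and neocortex 2 such results each were called, where the filtered test called 0. Over all genes the stage test then called 115 of 24237 in hypothalamus and 0 of 25983 in hippocampus. It called 169 of 23379 in neocortex and 81 of 22882 in cerebellum. The filtered test called 0 in each region. The share of all genes called in the unfiltered pairwise contrasts was not taken. The cause of these changes was not tested. Against a log2 fold of 0 instead of 1, the members called rose to 5 for hypothalamus and hippocampus (3 in the test used), to 6 for hypothalamus and neocortex (4) and to 4 for hippocampus and neocortex (2). Over all genes no filter gave 3824 calls of 27620 genes for hypothalamus and hippocampus, where the filtered test gave 2320 of 16529. For hippocampus and neocortex there were 2673 of 27620 instead of 1249 of 16529. For hippocampus and cerebellum there were 5021 of 27620 instead of 3130 of 16529. A log2 fold of 0 gave 10817 to 12787 calls of 16529 genes. Without cerebellum Estrus 2, Metestrus 1 and Metestrus 2, a choice made after seeing the data, the signs of the Sst differences reversed. They were -1.09 for metestrus minus proestrus, -0.67 for metestrus minus estrus and 0.72 for diestrus minus metestrus, where all libraries gave 1.28, 1.17 and -1.66. The libraries left out were the 3 highest in Sst and 1 library remained at metestrus, so the reversal is no separate sign. Vip for hypothalamus minus hippocampus was -0.32 under limma voom (0.34 in edgeR, neither called). Correlations between members centred on stage means gave 2 called relations instead of 0, Sst with Vip in the hippocampus (r = -0.84, permutation p = 0.00069, rho = -0.80, p = 0.0028, adjusted p = 0.0270 for r; r = -0.74 without Metestrus 1 and Proestrus 3) and Cck with Pvalb in the hypothalamus (r = 0.85, permutation p = 0.00098, rho = 0.74, p = 0.00765, adjusted p = 0.0270 for r; r = 0.49 without Estrus 1 and Estrus 3). With 1 library left out, members called stayed at 0 to 0 for stages and pairwise contrasts. With 1 stage and replicate number left out of all regions at once, in 12 fits, they stayed at 0 to 0 for the interaction, and the members' region counts did not change. Without hypothalamus Estrus 3 and Metestrus 3, 0 members were called there. The labels do not say whether equal numbers mark 1 animal, and the main fits treated all libraries as independent. Of 69 pairs of equal number and other stage within a region, 15 had r over 0.1 (median 0.01). In the hippocampus 6 of 18 did, up to 0.52. Of 69 pairs of equal stage and number between regions, 15 had r over 0.1 (median 0.04, highest 0.24). Those of neocortex and cerebellum ran from 0.0042 to 0.18. With replicate number as a block, 0 members were called for stages. With stage and number together as a block, the region counts stayed at 3, 4, 6, 2, 6 and 6. The hypothalamus had the fewest counts and the largest median half-width of an interval (0.59, log2). The hippocampus had the most counts and a larger median half-width (0.32) than the cerebellum (0.22) or neocortex (0.20). The part of depth in these widths was not tested.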
